A study of Rattus norvegicus with 5 samples.

Results

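The neuronal voltage-gated sodium channel alpha genes were followed through 5 RNA-seq libraries made from rat dorsal root ganglion cells in culture. These ganglia, beside the spinal cord, hold the cell bodies of sensory neurons and their glia. The members were chosen by symbol: Scn1a, Scn2a, Scn3a, Scn4a, Scn8a, Scn9a, Scn10a and Scn11a, 8 of the 33014 genes in the deposited gene-level table, all of which were found. Their 20 named transcripts, of 98811 transcripts in the deposited transcript files, were used for isoform shares. Ganglia came from wild-type Sprague Dawley rats at postnatal day 10, and per the labels a litter of 10 pups was dissociated for plating. All libraries carry the same labels: 5000 cells per well, PBS (the saline vehicle) added after 1 day, 8 days in culture, 3 wells pooled per sample, and poly-A selected RNA. They form 1 group with replicates 1 to 5, and there is no treated or untreated contrast. Whether each sample had its own litter or preparation is not stated, so the p-values cover only library-to-library spread, possibly all technical. They compare different genes within a library, so an error in a gene's level that repeats in every library is not covered.

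Voltage-gated sodium channels carry the rising phase of the action potential. Each alpha gene encodes a complete pore-forming protein, and the beta subunits and other partners alter its gating and placement. In sensory neurons Scn9a (Nav1.7) is known for setting the threshold of pain neurons, Scn10a (Nav1.8) for the main inward current of their action potential, and Scn11a (Nav1.9) for a persistent current near rest. Scn10a and Scn11a channels resist the blocker tetrodotoxin (TTX), while the channels of the other members are sensitive to it. Scn8a (Nav1.6) is the channel of mature nodes of Ranvier, Scn1a (Nav1.1) and Scn2a (Nav1.2) are best known from central neurons, Scn3a (Nav1.3) is an embryonic form known to return after nerve injury, and Scn4a (Nav1.4) is the skeletal muscle channel.

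Libraries held 21596608 to 27913098 estimated reads. Levels are given in TPM, the estimated reads per transcript length scaled to 1000000 per library, and a gene was called detected at 1 TPM or more in every library. All 7 pan-neuronal markers, all 6 nociceptor markers and all 4 A-fibre markers checked were detected, as were all 5 Schwann cell, 3 satellite glia, 4 fibroblast and 4 macrophage markers, so the levels below are those of a mixed culture. In such bulk samples, fewer cells of a type and less RNA per cell cannot be told apart. Replicate 1 stood apart from the rest in part: a chi-square per degree of freedom over genes, near 1 for sampling noise alone, was 7.19 to 8.99 between replicate 1 and the others and 2.69 to 7.35 among the other pairs. All pairs differed by more than sampling noise, so no libraries were merged; repeat preparations of 1 sample could differ by as much, and whether these are such repeats was not tested.

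The members fell into 3 tiers. Scn9a, Scn10a and Scn11a were between 11.7 and 26.2 TPM in every library, Scn3a, Scn2a and Scn8a between 2.00 and 3.28 TPM, and Scn1a and Scn4a below 1 TPM. Of the 8 members, 6 were detected, against 41.3% of all genes in the table. Together the 8 genes summed to 61.8 ± 3.71 TPM (SD, n = 5).

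RefSeq (assembly GRCr8) holds a promoter window, from 250 bases before to 50 after the gene's start, for 7 members. The windows of the 3 highest members and of Scn8a are shown because their base composition differs, with every CpG dinucleotide in capitals.
Scn9a, chr3:71701328-71701627, minus strand: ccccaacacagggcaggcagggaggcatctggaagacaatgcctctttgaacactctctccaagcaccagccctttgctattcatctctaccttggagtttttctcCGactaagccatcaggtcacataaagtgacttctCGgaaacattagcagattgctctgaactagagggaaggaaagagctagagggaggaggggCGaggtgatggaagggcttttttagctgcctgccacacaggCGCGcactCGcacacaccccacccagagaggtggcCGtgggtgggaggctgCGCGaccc
Scn10a, chr8:128340249-128340548, minus strand: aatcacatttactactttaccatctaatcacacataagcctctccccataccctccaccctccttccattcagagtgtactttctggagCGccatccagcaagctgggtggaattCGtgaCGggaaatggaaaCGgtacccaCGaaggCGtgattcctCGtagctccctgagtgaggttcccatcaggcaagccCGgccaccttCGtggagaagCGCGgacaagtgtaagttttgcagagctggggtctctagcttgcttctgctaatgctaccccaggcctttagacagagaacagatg
Scn11a, chr8:128444669-128444968, minus strand: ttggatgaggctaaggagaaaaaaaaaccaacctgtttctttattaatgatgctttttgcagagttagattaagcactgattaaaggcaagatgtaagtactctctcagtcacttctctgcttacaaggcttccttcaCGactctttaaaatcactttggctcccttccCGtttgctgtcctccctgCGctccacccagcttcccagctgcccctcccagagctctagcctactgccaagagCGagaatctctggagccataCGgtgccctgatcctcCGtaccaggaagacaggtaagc
Scn8a, chr7:133860977-133861276, plus strand: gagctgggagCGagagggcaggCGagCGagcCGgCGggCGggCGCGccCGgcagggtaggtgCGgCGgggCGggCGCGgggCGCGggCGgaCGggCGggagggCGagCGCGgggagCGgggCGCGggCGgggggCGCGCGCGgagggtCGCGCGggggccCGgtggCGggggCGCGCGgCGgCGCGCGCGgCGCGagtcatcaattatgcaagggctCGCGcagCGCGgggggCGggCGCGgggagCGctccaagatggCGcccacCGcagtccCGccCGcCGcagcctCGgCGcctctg

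The Scn8a window held 60 CpG and was 84.7% G or C, and 0.0328% of the 27457 promoter windows of this length held more CpG. By contrast, Scn9a had 9 CpG, Scn10a 11 and Scn11a 6, against a median of 7 over all windows, and their G and C content was 56.0%, 52.3% and 48.3%. Of the members not shown, Scn2a had 4 CpG, Scn3a 7 and Scn4a 9. The member of the densest CpG window was thus in the middle tier of levels. The motif TATAAA was searched on both strands and was in none of the 7 windows, while 14.3% of all windows hold it. TTCAGCAC, part of the site of the neuronal silencer REST, was likewise in none, against 1.05% of all windows. A motif this rare would most likely be missing from any 7 windows, so its absence says nothing about REST sites of these genes. The RUNX core TGTGGT was in the windows of Scn3a and Scn4a, against 16.9% of all. These matches describe letters in the windows only.

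Scn9a was the highest member. Its level was 21.4, 26.2, 25.3, 25.7 and 24.5 TPM in replicates 1 to 5, a mean of 24.6 ± 1.88 TPM (SD, n = 5). Replicate 1 was the low library and the other 4 lay between 24.5 and 26.2 TPM. Among the 13635 detected genes, 44.7% had a higher mean. Scn9a was higher than each of the other 7 members, where 65.5% of all 18987 genes tested were called lower than Scn9a (limma on log2 ratios, adjusted over all genes tested). The difference ran from 1.64-fold for Scn10a to 94.1-fold for Scn4a, with limma adjusted p from 2.03e-08 to 1.56e-05, and held in 5 of 5 libraries for each. Its single named transcript, NM_133289.2 of 9859 bases, carried 100% of the gene's TPM and between 3134 and 4294 estimated reads per library. Whether any other Scn9a transcript was among those quantified is not known, so this share is no measure of isoform use.

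Scn10a followed at 14.3, 15.7, 15.2, 14.8 and 14.6 TPM, a mean of 14.9 ± 0.526 TPM. No library of Scn10a reached the lowest Scn9a library. Scn9a exceeded it 1.64-fold, with a log2 ratio of 0.72 ± 0.08 (SD, n = 5; higher in 5 of 5 libraries; limma adjusted p = 1.56e-05). Scn11a stood at 11.7, 14.7, 13.4, 13.3 and 13.0 TPM, a mean of 13.2 ± 1.06 TPM. Its highest library overlapped the Scn10a range, but within each library Scn10a was the higher gene. The log2 ratio of Scn10a over Scn11a was 0.17 ± 0.07 (1.13-fold; 5 of 5 libraries; limma adjusted p = 0.00438, or 0.0149 with Scn11a as the reference of the fit). This small difference was larger than its spread between libraries, which leaves out any error that repeats in every library. In the same comparisons, 55.9% of all genes were called lower than Scn10a and 53.0% lower than Scn11a.

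Below a gap of about 4-fold came the channels of embryonic, central and nodal use. Scn3a was at 3.20, 3.28, 3.12, 2.97 and 3.26 TPM, a mean of 3.17 ± 0.127 TPM, and Scn11a exceeded it by a log2 ratio of 2.03 ± 0.12 (4.07-fold; 5 of 5 libraries; limma adjusted p = 2.23e-07). Scn2a was at 2.52, 3.13, 2.87, 2.90 and 2.79 TPM, a mean of 2.84 ± 0.218 TPM. The ranges of Scn3a and Scn2a overlapped. Scn3a was higher in 5 of 5 libraries by a log2 ratio of 0.15 ± 0.12 (1.11-fold; limma adjusted p = 0.0348, or 0.0495 with Scn2a as the reference), and that call was lost when replicate 1, 3 or 5 was left out (adjusted p = 0.0794, 0.0700 and 0.0979) and with a variance prior that follows the level (limma adjusted p = 0.0703). These neighbours are therefore not separated firmly by the 5 libraries. Against Scn3a, 34.1% of all genes were called lower, and against Scn2a 33.0%.

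Scn8a was at 2.00, 2.29, 2.27, 2.10 and 2.32 TPM, a mean of 2.20 ± 0.139 TPM. All its libraries lay below the lowest Scn2a library, and the log2 ratio of Scn2a over Scn8a was 0.36 ± 0.08 (1.28-fold; 5 of 5 libraries; limma adjusted p = 0.000557). This call rests on the gene-level table: with sums of named transcripts alone, which miss most of Scn8a and most of Scn2a, the log2 ratio was 1.11 (limma adjusted p = 0.156).

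The lowest members were the Nav1.1 gene and the muscle channel gene. Scn1a was at 0.584, 0.723, 0.854, 0.549 and 0.597 TPM, a mean of 0.661 ± 0.126 TPM, under the detection threshold in all 5 libraries. Scn8a exceeded it by a log2 ratio of 1.61 ± 0.19 (3.04-fold; limma adjusted p = 2.90e-06), where 30.5% of all genes were called lower than Scn8a. Scn4a was at 0.174, 0.166, 0.227, 0.0858 and 0.179 TPM, a mean of 0.167 ± 0.0509 TPM. Scn1a exceeded it by a log2 ratio of 1.52 ± 0.21 (2.87-fold; 5 of 5 libraries; limma adjusted p = 8.57e-07), where 18.2% of all genes were called lower than Scn1a. The sizes of these ratios of low genes follow the pseudocount: over pseudocounts of 1 and 0.01 TPM they were 0.95 and 1.73 for Scn8a over Scn1a, and 0.51 and 1.97 for Scn1a over Scn4a, with the same calls.

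The Scn4a level rested on 82 reads over the 5 libraries, 10 to 22 per library, which put it between 0.130 and 0.203 TPM (exact Poisson limits at 95%, counting error only). In GRCr8 the noncoding gene LOC108352146 overlaps Scn4a and was at 0.127 TPM, 76.1% of the Scn4a level. As the strand setting is not known, the Scn4a level is uncertain. Of 6 skeletal muscle markers 2 were detected, with a summed level of 6.30 to 7.87 TPM over the libraries, and the myogenic factor gene Myog was listed at 0 in 2 libraries. Their part in the Scn4a level was not tested. No other member overlaps a gene with a TPM above 0 in the deposited table.

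**Figure D1:**
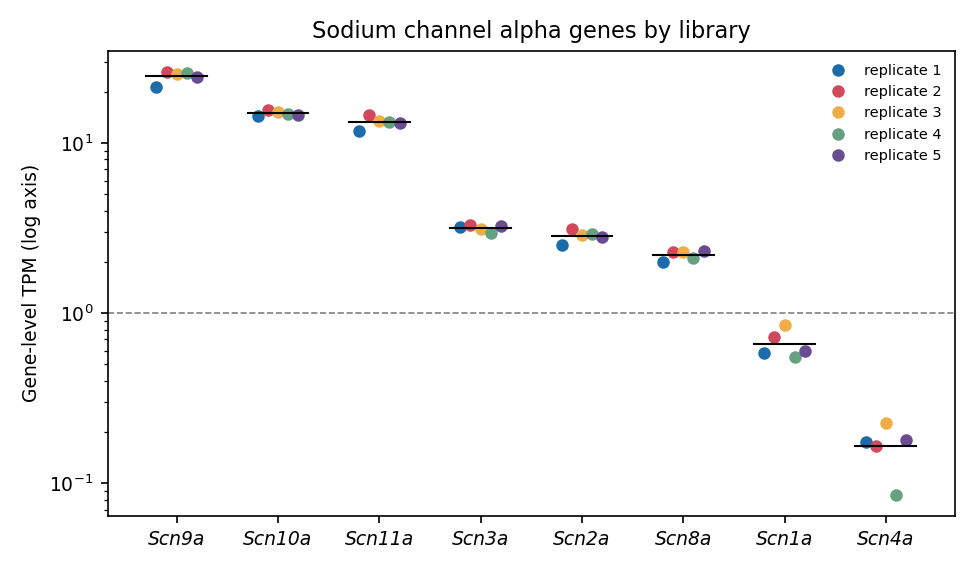
Gene-level TPM (log axis) of the 8 sodium channel alpha genes, 1 point per library, with the mean as a black bar and the detection threshold of 1 TPM dashed. Scn9a, Scn10a and Scn11a lie above 11 TPM in every library, Scn3a, Scn2a and Scn8a between 2.00 and 3.28 TPM, and Scn1a and Scn4a below 1 TPM.

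As shares of the summed TPM of the 8 genes, the parts of the 3 highest genes moved by few percentage points between libraries. Scn9a held 38.3% to 41.2% (mean 39.8% ± 1.04, SD, n = 5), Scn10a 23.7% to 25.6% (24.2% ± 0.813) and Scn11a 20.9% to 22.2% (21.4% ± 0.480). Those 3 genes together held 85.4% ± 0.526, and the neuron types that this signal comes from were not tested. The TTX-resistant channel genes Scn10a and Scn11a held 45.5% ± 0.664, between 45.0% and 46.5% in single libraries, and the 6 TTX-sensitive genes 54.5% ± 0.664. Which of these 2 classes is larger depends on the source, since with named transcripts alone, which hold none of the Scn1a signal and part of that of Scn2a, Scn3a and Scn8a, the TTX-resistant share was 50.7% ± 0.752. Scn3a held 5.14% ± 0.383, Scn2a 4.59% ± 0.0928, Scn8a 3.56% ± 0.157, Scn1a 1.07% ± 0.177 and Scn4a 0.270% ± 0.0838. Relative to their size, the shares of the lowest genes moved more, from 0.880% to 1.35% for Scn1a and from 0.138% to 0.359% for Scn4a.

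**Figure D2:**
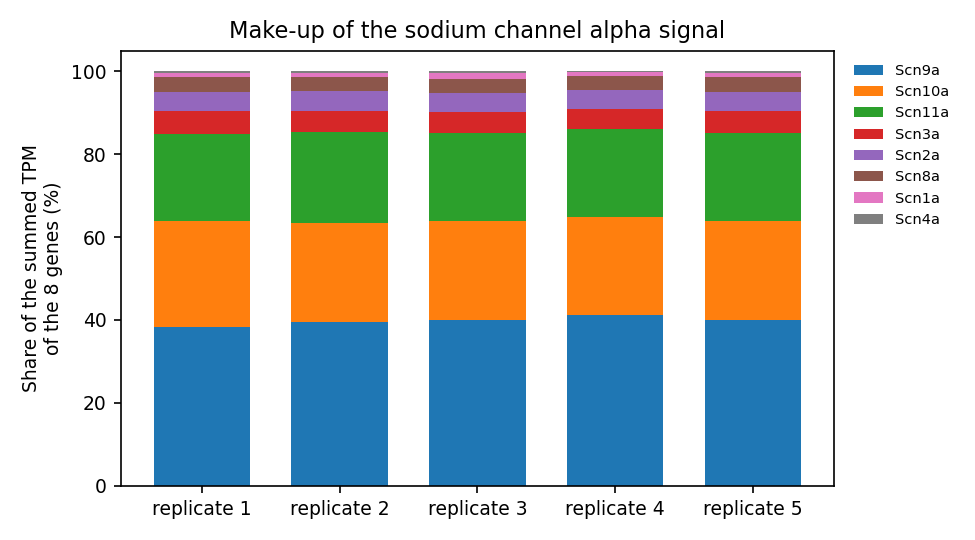
Each bar is 1 library and stacks the share (%) of each gene in the summed TPM of the 8 genes. Scn9a, Scn10a and Scn11a fill 84.9% to 86.2% of every bar, and Scn9a is the largest part in each.

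Between libraries the detected members varied by small amounts. The coefficient of variation (SD over mean of the TPM) was 3.53% for Scn10a, 4.02% for Scn3a, 6.34% for Scn8a, 7.63% for Scn9a, 7.69% for Scn2a and 8.00% for Scn11a, around a median of 5.59% over all detected genes. It was 19.1% for Scn1a and 30.6% for Scn4a, the members of lowest level. Replicate 1 was the lowest library for 5 members, Scn9a, Scn10a, Scn11a, Scn2a and Scn8a, while 24.4% of all detected genes were lowest there. Scn3a did not follow, with replicate 1 at its median.

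The library-to-library spread beyond counting noise was estimated from reads with edgeR (its biological coefficient of variation, which here may be technical), where Scn9a, Scn10a and Scn11a had enough reads. It came to 5.61% for Scn9a, 3.58% for Scn10a and 5.49% for Scn11a, against a median of 4.98% over 8871 genes. A smaller spread was found for 13.3% of genes in the case of Scn10a and for 58.2% in the case of Scn9a. Without replicate 1 the Scn9a value was 3.24%. The summed level of the nociceptor markers was 547 TPM in replicate 1 and 551 to 573 TPM in the others, that of the pan-neuronal markers 3314 TPM against 3297 to 3546 TPM, and that of the Schwann cell markers 5296 TPM against 5833 to 6068 TPM. The pan-neuronal sum is mostly Tubb3 and Uchl1 (means of 1664 and 1487 TPM), and neither was lowest in replicate 1. The other pan-neuronal markers, Rbfox3, Snap25, Elavl4, Isl1 and Pou4f1, were each lowest there, at 25.7, 91.2, 40.6, 15.8 and 27.9 TPM. The A-fibre markers summed to 65.4 TPM in replicate 1 and 73.1 to 84.7 TPM in the others, and the fibroblast markers to 1318 TPM against 1357 to 1421 TPM. Replicate 1 was not the lowest library for the other marker lists. The satellite glia markers summed to 433 TPM there, against 411 to 459 TPM. For the macrophage markers it was 727 TPM against 555 to 872 TPM, and for skeletal muscle 6.47 TPM against 6.30 to 7.87 TPM. Heart muscle markers (15.8 TPM) and central neuron and glia markers (7.34 TPM) were highest in replicate 1. The part of these cell types in the low replicate 1 values was not tested.

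Named transcripts accounted for the members very unevenly. For Scn9a, Scn10a, Scn11a and Scn4a they carried 100% of the gene's TPM. For Scn3a they carried 50.4%, for Scn2a 28.8% and for Scn8a 10.3%, and for Scn1a none. The rest of the signal of these 4 genes was assigned to transcripts that the RefSeq table used here does not name, so their isoforms are known only in part. NM_030875.2, the 8397-base transcript and only named one of Scn1a, had 0 estimated reads in all 5 libraries. By counting error alone this allows up to 0.00492 TPM (3 reads over the 5 libraries). That limit leaves out reads that could fit NM_030875.2 but were assigned by estimate to unnamed transcripts. The Scn1a level of 0.661 TPM was thus assigned to unnamed transcripts in every library, and how firm that assignment is was not tested.

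Isoform use in Scn10a was dominated by 1 transcript. NM_017247.2, of 6507 bases, was at 13.1, 13.1, 13.0, 12.4 and 12.1 TPM, or 85.5% ± 3.53 of the gene (SD, n = 5). XM_039080964.1, of 6945 bases, was at 0.629, 1.94, 1.54, 1.58 and 2.02 TPM, or 10.3% ± 3.61. Its lowest share was 4.39%, in replicate 1, and its highest 13.9%, in replicate 5. The remaining transcript, XM_039080963.1, held 2.89% to 5.56%. Scn11a came almost wholly from NM_019265.2, of 5905 bases, at 99.6% ± 0.338. Its other named transcript, XM_039080974.1, had reads in 3 libraries only and at most 0.679% of the gene. Scn4a reads all fell on NM_013178.2, and its other named transcript had 0 reads.

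For Scn3a the leader among the named transcripts, which carry 46.3% to 57.4% of the gene, differed between libraries, although the gene level varied little. Of its 9 named transcripts 7 had reads in some library. NM_013119.2, of 6822 bases, held 58.2%, 65.2%, 58.6%, 20.4% and 22.9% of the named TPM in replicates 1 to 5. XM_008761916.3, of 6260 bases, held none in replicates 1 and 2, then 30.6%, 21.5% and 72.2%. XM_008761920.3, of 5856 bases, held 49.4% in replicate 4 and none elsewhere. By these estimates the leading named transcript was a different one in replicates 4 and 5 than in replicates 1 to 3. All named Scn3a transcripts together had 124 to 169 estimated reads per library, and the transcripts not named could hold a larger share than any of these. Reads are assigned to the transcripts of a gene by estimate. How firm that assignment is was not tested, so a true change of isoform between libraries is not shown.

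The reference transcripts of the other middle-tier genes behaved in different ways. NM_012647.2, of 8556 bases and the only named transcript of Scn2a, was at 1.11, 0.716, 1.19 and 1.07 TPM in replicates 1 to 4 and at 0 in replicate 5. The gene-level Scn2a value of replicate 5, 2.79 TPM, lay within the range of the other libraries. NM_019266.3, of 6548 bases and the only named transcript of Scn8a, was at 0.140 to 0.361 TPM with 15.3 to 30.2 reads per library. It held 6.66% to 15.6% of the Scn8a level.

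**Figure D3:**
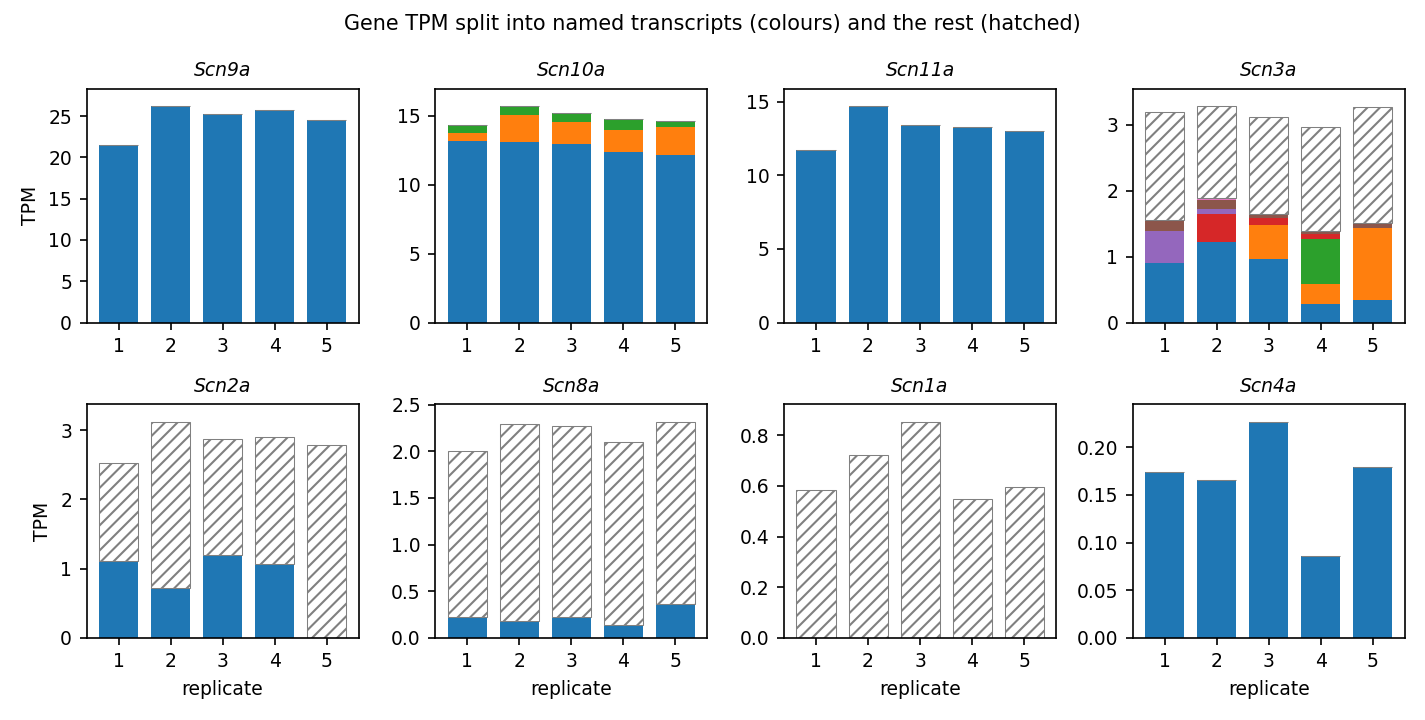
Each panel splits the TPM of 1 gene in replicates 1 to 5 into its named transcripts (colours, highest mean at the bottom) and the part on transcripts not named (hatched); vertical scales differ between panels. Scn9a, Scn10a, Scn11a and Scn4a are filled by named transcripts, Scn1a has none, and the colours of Scn3a change between libraries.

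The members sit in 2 gene clusters and at 2 single sites. In GRCr8, Scn3a, Scn2a, Scn1a, Scn9a and the glial gene Scn7a lie in this order on chromosome 3, with Csrnp3, Galnt3 and Ttc21b among the genes between Scn2a and Scn1a. Scn1a and Scn9a are next to each other and differed by a log2 ratio of 5.03 ± 0.22 in favour of Scn9a (32.7-fold; 5 of 5 libraries; limma adjusted p = 3.05e-08). Scn7a, a sodium channel relative best known from Schwann cells, follows Scn9a past a pseudogene and was at 310 ± 24.0 TPM. On chromosome 8 lie Scn10a and Scn11a, the TTX-resistant pair. Scn8a lies on chromosome 7 and Scn4a on chromosome 10.

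Set beside 39 other ion channel genes of sensory neurons, Scn9a was near the top and the low members near the bottom. That list, too, was chosen with earlier results of these data known. Of these 39 genes, 3 had a higher mean than Scn9a, 7 a higher mean than Scn10a and than Scn11a, 28 than Scn3a, 30 than Scn2a, 31 than Scn8a and 37 than Scn1a, and all 39 were above Scn4a. The measure of likeness was the mean absolute log2 ratio of TPM over the 5 libraries. The touch channel gene Piezo2 (23.3 ± 1.43 TPM) was closest to Scn9a at 0.08, followed by the N-type calcium channel gene Cacna1b (27.7 ± 1.93 TPM) at 0.17. For both Scn10a and Scn11a the closest were the potassium channel gene Kcnk10 (13.2 ± 0.529 TPM), at 0.18 and 0.05, and the P/Q-type calcium channel gene Cacna1a (13.0 ± 0.522 TPM), at 0.20 and 0.07. The A-type potassium channel gene Kcna4 (2.19 ± 0.156 TPM) was closest to Scn8a at 0.05, followed by the R-type calcium channel gene Cacna1e (1.88 ± 0.119 TPM) at 0.21. For Scn2a the closest was the chloride channel gene Ano1 (2.93 ± 0.308 TPM) at 0.06. Ano1 was also closest to Scn3a, at 0.12, followed by the cold channel gene Trpm8 (3.51 ± 0.547 TPM) at 0.16. Trpm8 is uncertain, because Hjurp overlaps it at 174% of its level.

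Genes of proteins that bind, anchor, modify or remove sodium channels were mostly present. Of 25 partner genes, listed with earlier results of these data known, 24 were detected, against the 41.3% of all genes. The highest was S100a10, an annexin partner known for bringing Nav1.8 to the membrane, at 2164 ± 17.4 TPM. Also among the 5 highest, the ubiquitin ligase gene Nedd4 was at 392 ± 8.41 TPM, the microtubule end protein gene Mapre1 at 166 ± 2.09 TPM and the adhesion gene Cntn1 at 110 ± 6.90 TPM. The only partner gene under the threshold was Fgf14, a channel-binding FGF homologous factor, at 0.451 to 1.39 TPM and under it in 4 of 5 libraries, and it is uncertain because Itgbl1 overlaps it at 1226% of its level. Of the beta subunit genes, Scn4b was at 9.26 ± 0.729 TPM. These levels come from all cells of the wells, and S100a10 and Nedd4 are known from many cell types.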

How the data were processed

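Trim Galore 0.6.6, cutadapt 2.8, Salmon 1.5.1 and the build mRatBN7.2 are named per the submitters' processing notes; step order and strand setting: not given in the sources used here. Gene-level TPM of all 5 libraries were deposited by the authors in 1 table. Per the file headers, the deposited transcript files hold TPM and estimated counts of reads. Transcripts were joined to symbols through a RefSeq GRCr8 table by accession without version, which named 67330 of 98811 (68.1%).

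Log2((TPM + 0.1)/(reference TPM + 0.1)) was tested against 0 for all genes with a mean TPM of at least 0.1, with each member but the lowest as the reference (limma 3.58.1, intercept only, two-sided, Benjamini-Hochberg over all genes tested, threshold 0.05); a neighbouring pair took its higher member as the reference. Folds are on this scale, which understates those of low genes. For edgeR 4.0.16 (TMM, filterByExpr), estimated counts were rounded and summed for genes whose named transcripts came within 10% of the gene TPM. Both steps were tested on simulated data with most genes at the same level and all with the same spread. These data hold many levels and spreads, so that test does not cover them. Alternatives were other pseudocounts, filters, detection thresholds and scalings, named-transcript sums, reads without length normalization, an exact sign-flip test, a trended prior and leaving out each library.

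Named were the 8 members, Scn7a, transcripts of at least 10% share, the 5 highest and the undetected partner genes, and the 2 closest channel genes per member of at least 1 TPM; a few of these are not reported here. Scn4b, overlapping and neighbouring genes, and the remaining transcripts were chosen after their values were seen. The members and lists were chosen with earlier results of these data known. Coordinates of genes are left out because the builds differ; promoter windows are those of RefSeq GRCr8.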

Additional observations from a re-analysis of the deposited data

Results flagged for a closer look

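The group of 5 libraries was checked for a single library far from the others in 29 sets of values, and 2 stood out, where chance gives about 1 in 20. Both lie in Scn10a and in replicate 1. The Scn10a share of the summed TPM of the 8 genes was 25.6% in replicate 1, against 23.7% to 24.0% in the other libraries, and the gap took 0.844 of the whole range (limit 0.710). The transcript NM_017247.2 held 91.6% of Scn10a in replicate 1, against 83.2% to 85.5% elsewhere, a gap of 0.727 of the range.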

How the results depend on the processing

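Of the settings for the 7 neighbouring pairs, only named transcript sums and reads without length normalization could turn a direction, since every pair has 1 sign in 5 of 5 libraries, and neither did in the pairs that gave a value. With 32 patterns of signs, the smallest p an exact sign-flip test allows for 5 libraries is 0.0625, so no pair can pass it: the log2 ratios are those of the report, 0.72 (Scn9a over Scn10a), 0.17 (Scn10a over Scn11a), 2.03 (Scn11a over Scn3a), 0.15 (Scn3a over Scn2a), 0.36 (Scn2a over Scn8a), 1.61 (Scn8a over Scn1a) and 1.52 (Scn1a over Scn4a). Calls were also lost for Scn3a over Scn2a without replicate 1, 3 or 5 (limma adjusted p = 0.0794, 0.0700 and 0.0979; 0.11 to 0.18 over the 5 libraries left out in turn). The others lost were those of Scn3a over Scn2a, at 1.30 with named transcript sums (limma adjusted p = 0.0616), 1.35 without length normalization (0.156) and 0.15 with a trended prior, which was chosen after seeing the data (0.0703), and those of Scn2a over Scn8a, at 1.11 with named sums (0.156) and 1.34 without length normalization (0.304). In the settings with named transcripts, Scn2a is at 0 in replicate 5. Named sums or missing length normalization also moved Scn11a over Scn3a to 2.98 and 2.92, and the latter moved Scn9a over Scn10a to 1.33 and Scn10a over Scn11a to 0.33, with the calls kept. Detected were 7 members at 0.5 TPM, 6 at 2 TPM and 4 with named sums. Leaving out 1 library gave 3.24% to 6.14% for the edgeR spread of Scn9a (lowest without replicate 1). The Scn9a share was 44.3% with named sums and 55.8% by reads, and the TTX-resistant share 50.7% and 39.7%; reads also follow transcript length. Pairs with Scn1a gave no value with named transcripts, where Scn1a is at 0, nor with a minimum mean of 1 TPM. No paired analysis was possible because there is 1 group. Depth limits Scn4a, at 10 to 22 reads per library; gene-level reads were not recovered for Scn1a, Scn2a, Scn3a and Scn8a.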
